A study of Homo sapiens with 27 samples.

Results

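NRF2, encoded by NFE2L2, its inhibitor KEAP1 and 6 enzymes of the antioxidant response (GCLC, GCLM, TXNRD1, SRXN1, HMOX1 and NQO1) were followed across 501mel human melanoma cells that differed in nutrient supply, mTOR activity and the presence of the transcription factors TFE3 and TFEB. The members were the rows of the deposited normalised expression table carrying these 8 symbols, and all 8 were present among its 13523 genes. 501mel is a melanoma line with an oncogenic BRAF mutation that also expresses MITF, the third factor of this family in these cells. RNA was read by QuantSeq, in which each transcript gives tags from its 3′ end, so that a normalised read count is a number of tags scaled for the depth of the library.

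NRF2 is a transcription factor that KEAP1 binds and delivers to a CUL3 ubiquitin ligase for degradation. When oxidants or electrophiles modify KEAP1, NRF2 escapes, pairs with a small MAF protein and binds antioxidant response elements in genes for glutathione synthesis, thioredoxin recycling, haem breakdown and quinone reduction. Because this control acts on the protein, the NFE2L2 transcript level is not a measure of NRF2 activity. In general, mTORC1 holds TFE3 and TFEB in the cytoplasm of fed cells. They move into the nucleus when amino acids are withdrawn or mTOR is inhibited. For the line used here, however, the study's text describes TFE3 as largely nuclear and nuclear TFEB as low without mTOR inhibition. Inhibition increased both. The study's text also reads the expression changes in fed cells lacking these factors as compatible with both being active in transcription there.

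There were 9 groups. Parental (WT) cells were untreated, kept for 12 h in HBSS, a salt solution that supplied glucose but no amino acids, or treated for 12 h with 250 nM Torin1, an inhibitor of the kinase mTOR (Torin below). TFE3 KO, TFEB KO and TFE3/TFEB double KO (DKO) cells were made with CRISPR-Cas9 and given either a 12 h control incubation or the same 12 h of 250 nM Torin. According to the study's text the TFE3 KO and TFEB KO were each represented by a single clone, so that clone and genotype cannot be told apart. The untreated WT libraries carried no incubation time in their labels, unlike the KO controls. Each group had 3 libraries except WT HBSS and WT Torin, which had 2, because 1 library's values stood in the deposited columns of both WT HBSS replicate 3 and WT Torin replicate 1, equal for each of 13523 genes, and were left out (the duplicated column below). Nothing in the labels states that replicates came from separate cultures, so p-values measure the spread between libraries, which may be technical.

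The 25 libraries held 4147050 to 6526392 reads, and 3 reads corresponded to a normalised read count of 0.46 to 0.711. The member with the fewest reads was HMOX1, at 16 to 87 reads per library, followed by GCLC at 41 to 136, whereas NQO1 had 1268 to 3359. All 6 melanocyte lineage markers were present, at a summed 4022 to 12010, while the endothelial and keratinocyte markers were absent from the table and the 2 of 5 fibroblast markers in the table summed to 0.208 to 6.62. Of the 5 immune markers 1 was in the table, CD68, a lysosomal membrane protein that many cell types make, at 29.5 to 74.2, and PTPRC, the general leukocyte marker, was not. The part of CD68-expressing cells in the results was not tested. Untreated WT cells had a TFE3 transcript level of 24.0 ± 0.285, TFE3 KO controls 6.30 ± 1.27 and DKO controls 6.35 ± 0.470 (mean ± SD of 3 libraries each). The TFEB transcript was scarce in control cells. Its mean ± SD over 3 libraries was 3.25 ± 0.827 for untreated WT, 1.11 ± 0.485 for TFEB KO controls, 0.661 ± 0.457 for DKO controls and also only 0.681 ± 0.764 for TFE3 KO controls. In WT HBSS it was 28.1 and 30.4, and the mean was 8.99 times that of untreated WT (2.85 ± 0.36 SE on the log2 scale, adjusted p = 4.43e-09), while TFE3 stood at 24.4 ± 1.01 there (SD, n = 2). MITF was not constant either, at 762 ± 37.3 in untreated WT (SD, n = 3) and 1423 ± 44.1 in HBSS (SD, n = 2). That rise was 0.90 ± 0.07 (SE, adjusted p = 1.55e-15). MITF was also lower in DKO controls than in untreated WT (-0.455 ± 0.061 SE, adjusted p = 1.79e-07). With Torin it rose in TFE3 KO (0.33 ± 0.06 SE, adjusted p = 1.27e-05). For the proteins, the study's text describes modestly more TFE3 in TFEB KO lines. It describes moderately less TFEB and somewhat less MITF in TFE3 KO lines.

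In the human genome (GRCh38, GENCODE annotation) NFE2L2 lies on the minus strand at chr2:177218667-177392756, KEAP1 on the minus strand at chr19:10486125-10503558, GCLC on the minus strand at chr6:53497341-53616970 and GCLM on the minus strand at chr1:93885199-93909456. TXNRD1 lies on the plus strand at chr12:104215779-104350307, SRXN1 on the minus strand at chr20:646615-653200, HMOX1 on the plus strand at chr22:35380361-35394214 and NQO1 on the minus strand at chr16:69706996-69726668. Another gene model on the same strand comes within 1000 bases of the SRXN1 3′ end, and HNRNPA3, on the opposite strand, within 1000 bases of that of NFE2L2. Tags of SRXN1 could have been split with its neighbour, and those of NFE2L2 could have been mixed with HNRNPA3 if strand was not used in counting, which is not stated in the sources used here.

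NRF2 with a small MAF protein recognises the core letters TGACNNNGC, and 3 of the 7 members with a RefSeq promoter window held them on either strand. Each window ran from 250 bases before to 50 bases after an annotated transcription start (GRCh38.p14), 300 bases in all. The core was present in the windows of GCLM, TXNRD1 and KEAP1, in 4 of the 10 windows of these members, and in 13.3% of 35116 promoter windows of all genes. GCLM had it at -34 from the start on the opposite strand. TXNRD1 had it at -99 and, on the opposite strand, at -8 in the window of its upstream start, and at -102 on the opposite strand in that of a downstream start. The KEAP1 window held it at -54 and, on the opposite strand, at -31, and the letters of the latter were those found in GCLM. CACGTG, the palindromic E-box bound by TFE3 and TFEB, was in 7.26% of all windows and in 0 of the members' windows, and TGATGNAA, a core of the amino acid response element bound by ATF4, was in 3.62% of all windows and likewise in 0 of theirs. These searches covered both strands, the 3 sets of letters do not overlap each other in the members, and a match describes letters and not an occupied site. The search did not reach beyond these 300 bases, so a member without the core here may hold it elsewhere. HMOX1 had no window. Members whose windows lacked the core, such as SRXN1 and NQO1, also changed with treatment or genotype. Whether the core bore on any change was not tested. Only the 4 windows that held the core are shown, written 5′ to 3′ on the strand of the gene, with the core in capitals.
GCLM, chr1:93909381-93909680, minus strand: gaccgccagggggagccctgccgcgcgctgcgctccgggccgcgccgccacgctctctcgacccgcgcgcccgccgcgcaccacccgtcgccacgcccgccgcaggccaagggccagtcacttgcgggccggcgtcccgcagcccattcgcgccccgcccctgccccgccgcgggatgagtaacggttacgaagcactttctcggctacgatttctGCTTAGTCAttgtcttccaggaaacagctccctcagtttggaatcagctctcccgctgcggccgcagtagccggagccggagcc
TXNRD1 upstream start, chr12:104215529-104215828, plus strand: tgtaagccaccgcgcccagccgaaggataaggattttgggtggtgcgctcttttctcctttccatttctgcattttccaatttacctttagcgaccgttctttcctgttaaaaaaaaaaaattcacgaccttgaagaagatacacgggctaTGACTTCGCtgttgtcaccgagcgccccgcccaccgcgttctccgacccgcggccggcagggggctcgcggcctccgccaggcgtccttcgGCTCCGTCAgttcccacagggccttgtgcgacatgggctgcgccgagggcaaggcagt
TXNRD1 downstream start, chr12:104286782-104287081, plus strand: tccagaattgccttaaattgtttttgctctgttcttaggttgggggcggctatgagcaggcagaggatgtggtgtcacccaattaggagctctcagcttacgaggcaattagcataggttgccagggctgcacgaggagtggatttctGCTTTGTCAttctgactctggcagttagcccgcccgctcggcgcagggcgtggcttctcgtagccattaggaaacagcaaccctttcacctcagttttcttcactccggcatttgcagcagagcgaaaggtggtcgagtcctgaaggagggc
KEAP1, chr19:10502722-10503021, minus strand: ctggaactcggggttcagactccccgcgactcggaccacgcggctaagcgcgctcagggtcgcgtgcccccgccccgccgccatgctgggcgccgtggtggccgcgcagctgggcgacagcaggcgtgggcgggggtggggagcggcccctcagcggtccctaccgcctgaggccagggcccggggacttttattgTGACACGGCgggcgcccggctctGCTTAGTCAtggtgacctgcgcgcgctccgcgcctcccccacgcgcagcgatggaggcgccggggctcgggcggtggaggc

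In HBSS all 8 members differed from untreated WT, and not all in the same direction. According to the study's text the line was grown in RPMI with serum. The lack of amino acids therefore cannot be told apart from that of other medium components, or from the 12 h incubation. NFE2L2 and TXNRD1 rose, KEAP1, GCLC, GCLM, SRXN1, HMOX1 and NQO1 fell, and HMOX1 and KEAP1 had the largest fold changes. With a difference called where limma's adjusted p was under 0.05, 2 of 8 members were higher, against 23.6% of the 13052 genes tested, and 6 of 8 were lower, against 24.7%. The median log2 fold change of the 8 was -0.55, beside -0.03 over all genes tested. All fold changes are on the log2 scale of the normalised read count plus 1, which understates the changes of low genes. In bulk RNA, fewer cells expressing a gene and less RNA per cell cannot be told apart.

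Of the regulators, NFE2L2 was 110.3, 118 and 122 in the untreated WT libraries and 148 and 155.5 in HBSS. Both HBSS libraries lay above all 3 untreated ones. The difference was 0.38 ± 0.10 (SE, adjusted p = 0.00186), a ratio of means of 1.30. KEAP1 moved the other way, from 46.0, 42.8 and 45.9 to 22.8 and 14.2. Its groups were far apart, and the fold change was -1.27 ± 0.16 (SE, adjusted p = 2.75e-09), with untreated cells 2.43 times higher.

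Glutathione synthesis starts with glutamate-cysteine ligase, of which GCLC is the catalytic and GCLM the modifier subunit. GCLC was 19.1, 26.9 and 21.3 in untreated WT and 14.5 and 14.7 in HBSS. The groups did not overlap, but 1 untreated library stood well above the rest, and the fold change of -0.57 ± 0.20 (SE, adjusted p = 0.0144) rested on few reads. Without WT untreated replicate 2 it was -0.44 (adjusted p = 0.0922), and without HBSS replicate 1 or 2 the adjusted p was 0.0721 or 0.0647. GCLM was 110.8, 113 and 120.4 before and 78.0 and 79.7 in HBSS, with the libraries of each group close together. It fell by 0.53 ± 0.13 (SE, adjusted p = 0.000394).

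TXNRD1, the cytosolic thioredoxin reductase, stood out by its direction. It was 96.8, 92.4 and 109 in untreated WT and 192 and 203 in HBSS. These were the highest TXNRD1 levels of the 25 libraries, and the increase was 0.98 ± 0.11 (SE, adjusted p = 2.2e-10), a ratio of 1.98. SRXN1, the sulfiredoxin that restores overoxidised peroxiredoxins, was 159, 141 and 149 and then 73.2 and 78.7. Its levels were thus separated as widely as those of TXNRD1 but in the opposite direction, at -0.97 ± 0.10 (SE, adjusted p = 5.21e-11).

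HMOX1, the inducible haem oxygenase, was 13.5, 17.2 and 14.4 in untreated WT and 5.06 and 3.35 in HBSS. It had the steepest fall of the members, -1.64 ± 0.22 (SE, adjusted p = 1.89e-08), with untreated cells 3.58 times higher. NQO1, the quinone reductase, was 552, 484 and 507 and then 367 and 381. The groups did not overlap, and the fold change was -0.46 ± 0.09 (SE, adjusted p = 2.01e-05).

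**Figure D1:**
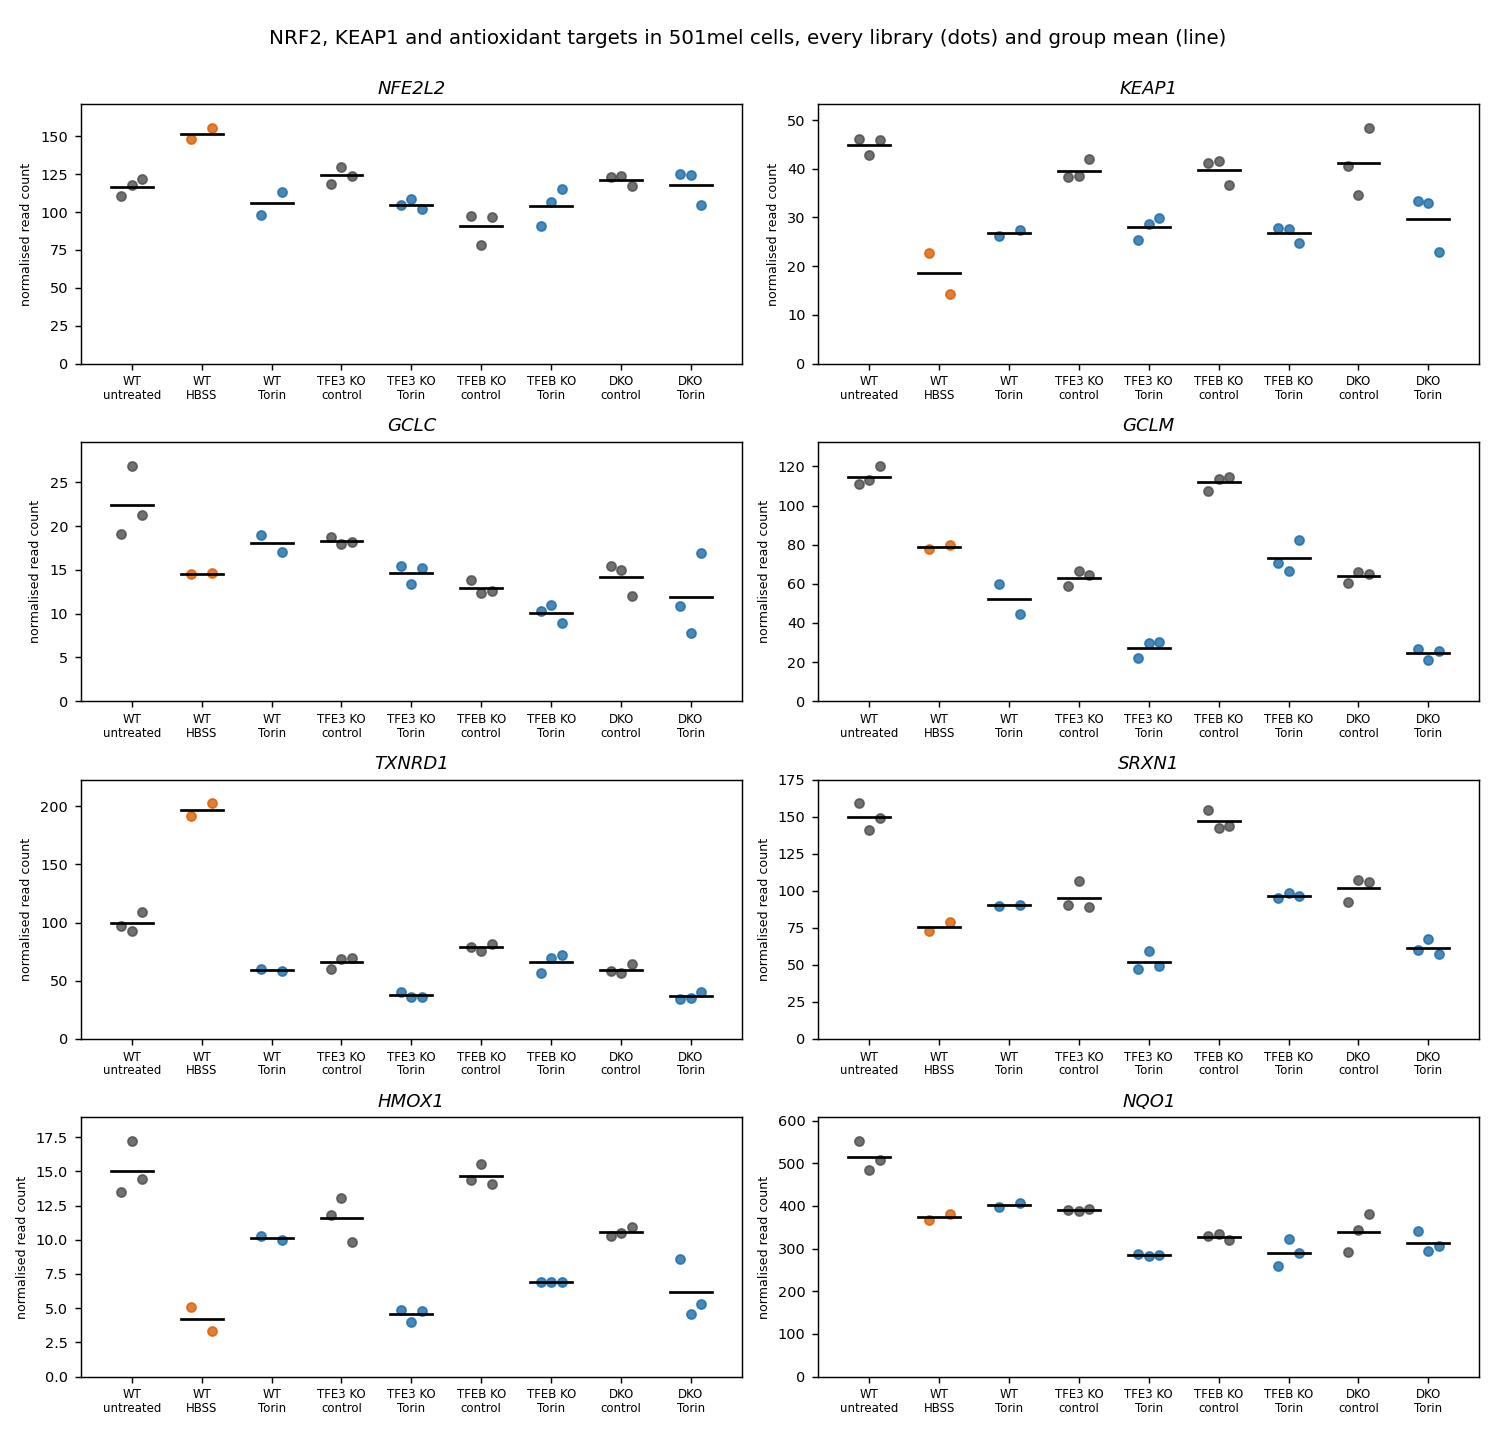
Normalised read count (vertical axis, from 0, a separate scale for each gene) of the 8 members in every library, with dots for libraries and a black line for the group mean, in grey for control, orange for HBSS and blue for Torin. TXNRD1 reached 192 and 203 in HBSS and lay between 34.6 and 109 elsewhere, while GCLM lay between 58.6 and 66.6 in TFE3 KO and DKO controls and between 107.7 and 120.4 in WT and TFEB KO controls.

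Of the other genes of the pathway, 94 of 108 listed were in the table and tested. In HBSS 24 were higher (25.5%, beside 23.6% of all genes tested) and 31 lower (33%, beside 24.7%). The other 39 did not pass, and the median log2 fold change was -0.06. Of the partners, relatives and regulators of NRF2, 6 of 13 were higher, 2 were lower and 5 did not pass (median 0.48). BACH2, a repressor that competes with NRF2 for the same elements, rose by 1.77 ± 0.23 (SE, adjusted p = 9.96e-09), its mean being 5.41 ± 1.97 untreated (SD, n = 3) and 20.1 ± 1.75 in HBSS (SD, n = 2). The small MAF genes MAFG and MAFF, named after their values were seen, rose by 1.54 ± 0.10 and 1.34 ± 0.14 (SE). In the glutathione list, 8 of 30 were higher and 6 lower (median 0.06), and its extreme was CHAC1, which degrades glutathione and is a textbook target of ATF4. Its mean was 8.16 ± 2.31 in untreated WT (SD, n = 3) and 100.7 ± 15.7 in HBSS (SD, n = 2), and it rose by 3.50 ± 0.25 (SE, adjusted p = 2.23e-16).

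The thioredoxin, peroxiredoxin and methionine sulfoxide reductase list, in contrast to TXNRD1, leaned downward in HBSS, with 8 of 15 lower and 2 higher (median -0.36). For this and the lists below, the shares over all genes tested were 24.7% lower and 23.6% higher. MSRB1 and MSRB3, which reduce oxidised methionine, fell by 1.74 ± 0.18 and 1.37 ± 0.13 (SE, adjusted p = 3.05e-11 and 4.91e-12). By contrast TXNIP, which binds and inhibits thioredoxin, rose by 1.57 ± 0.09 (SE, adjusted p = 3.69e-19). Quinone, carbonyl and xenobiotic detoxification genes were lower in 7 of 14 and higher in 2 (median -0.33). The carbonyl reductase CBR3 fell by 1.39 ± 0.15 (SE, adjusted p = 8.36e-11), whereas OSGIN1, an oxidative stress-induced growth inhibitor, rose by 1.97 ± 0.21 (SE, adjusted p = 3.37e-11). Haem and iron handling had 4 of 7 lower and 2 higher (median -0.48), and superoxide dismutases and catalase 2 of 5 lower and 2 higher (median 0.58). NADPH supply had 2 of 10 lower and 2 higher (20% each, median -0.12), near the shares over all genes.

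Torin in WT cells lowered 6 of the 8 members and raised 0, whereas 23.4% and 20.5% of all genes tested were lower and higher. KEAP1, GCLM, TXNRD1, SRXN1, HMOX1 and NQO1 fell, and NFE2L2 and GCLC did not pass the test. GCLM changed most. The median over the 8 was -0.62, beside 0.00 over all genes.

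NFE2L2 was 98.2 and 113 in Torin, overlapping the untreated range, and its difference was -0.14 (95% interval -0.35 to 0.06, adjusted p = 0.263), or 0.10 (adjusted p = 0.612) with the duplicated column kept as WT Torin. KEAP1 was 26.2 and 27.5, clear of every untreated library. Its fold change was -0.72 ± 0.16 (SE, adjusted p = 0.000198).

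For the ligase subunits, GCLC was 19.0 and 17.1, just below the lowest untreated library, at -0.29 (95% interval -0.69 to 0.11, adjusted p = 0.247). GCLM was 60.0 and 44.8, and the 2 libraries differed more from each other than those of most groups. Both nevertheless lay far below untreated WT, and the fold change was -1.13 ± 0.13 (SE, adjusted p = 3.06e-10), with untreated cells 2.19 times higher.

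TXNRD1 was 60.2 and 58.3 in Torin, below every untreated library and thus on the other side of untreated cells from HBSS. It fell by 0.73 ± 0.11 (SE, adjusted p = 3.84e-07), but with the duplicated column kept as WT Torin the difference was -0.19 (adjusted p = 0.592). SRXN1 was 90.0 and 90.8, a fold change of -0.72 ± 0.10 (SE, adjusted p = 1.31e-07). HMOX1 was 10.3 and 9.96, with a fold change of -0.52 ± 0.22 (SE) that sat at the threshold (adjusted p = 0.0494). It did not pass with a pseudocount of 0.1 (-0.56, adjusted p = 0.0621), with libraries rescaled by the median of ratios (adjusted p = 0.071), in edgeR (adjusted p = 0.0739), in DESeq2 (adjusted p = 0.0826) or without WT untreated replicate 2 or 3 or WT Torin replicate 2 or 3 (adjusted p = 0.159, 0.0705, 0.127 and 0.17). NQO1 was 397 and 406, below the untreated range, and its fold change was -0.35 ± 0.09 (SE, adjusted p = 0.000783).

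Among the other pathway genes, Torin in WT raised 16 of 94 (17%, beside 20.5% of all genes tested) and lowered 36 (38.3%, beside 23.4%). Their median was -0.28. The NADPH supply list was lower in 6 of 10 and higher in 2 (median -0.39), and NRF2 partners, relatives and regulators were lower in 5 of 13 and higher in 2 (median -0.30). The glutathione list was lower in 9 of 30 and higher in 5 (median -0.22), with the mitochondrial glutaredoxin GLRX2 falling by 1.09 ± 0.16 (SE, adjusted p = 2.16e-07) and the gamma-glutamyltransferase family gene GGT7 rising by 1.06 ± 0.25 (SE, adjusted p = 0.000465). In the thioredoxin and peroxiredoxin list 5 of 15 were lower and 3 higher (median -0.26). PRDX4, the peroxiredoxin of the endoplasmic reticulum, fell by 1.03 ± 0.11 (SE, adjusted p = 9.49e-11) and MSRB1 by 0.98 ± 0.18 (SE, adjusted p = 1.66e-05). TXNIP, which was also higher in HBSS, went up by 1.44 ± 0.09 (SE, adjusted p = 1.17e-17), with means of 43.6 ± 1.88 untreated (SD, n = 3) and 119.9 ± 1.45 in Torin (SD, n = 2). BACH2 rose by 1.02 ± 0.23 (SE, adjusted p = 0.000316). Haem and iron handling had 3 of 7 lower and 2 higher (median -0.19), detoxification 5 of 14 lower and 2 higher (median -0.25), and superoxide dismutases and catalase 3 of 5 lower and 0 higher (median -0.30).

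**Figure D2:**
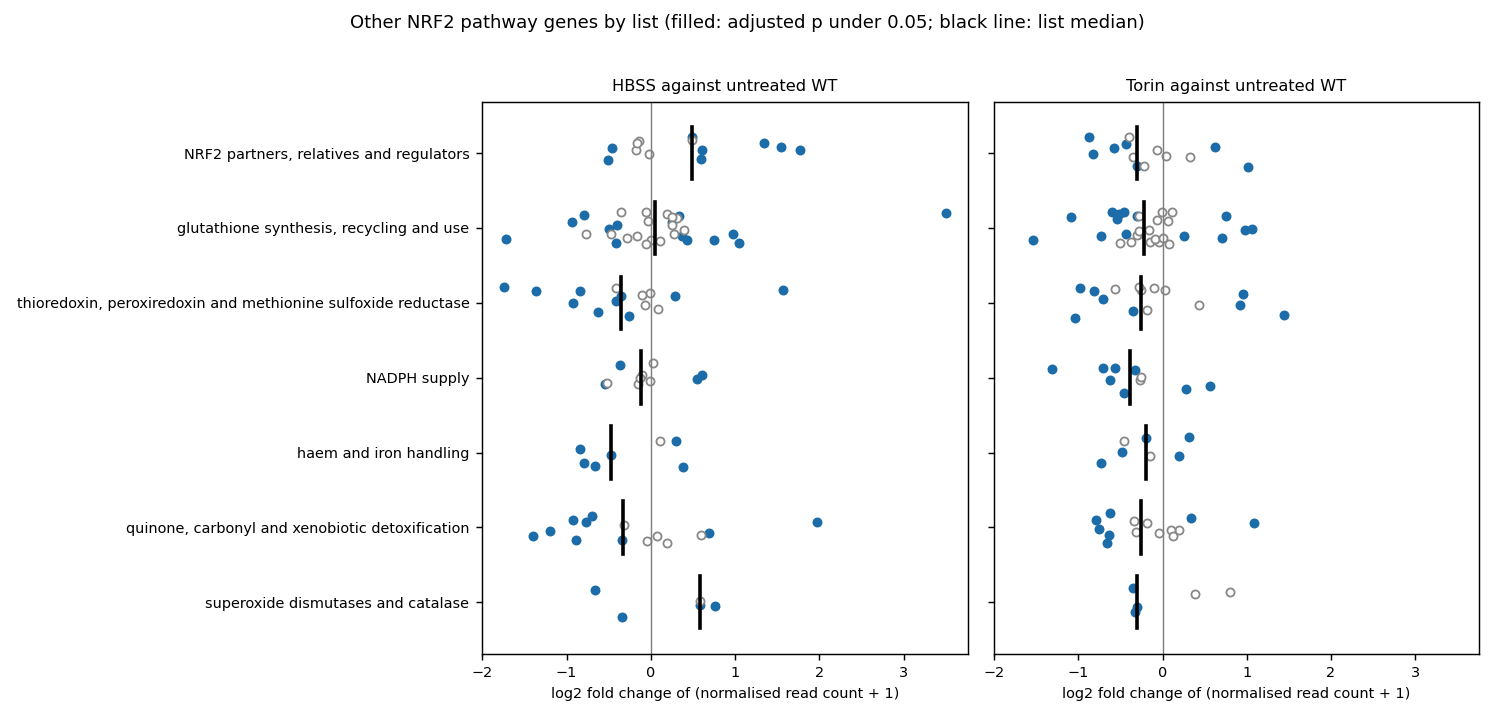
Log2 fold change (horizontal axis) of the other pathway genes, grouped by list on the vertical axis, for HBSS (left) and Torin (right) against untreated WT. Each dot is a gene, filled where the adjusted p was under 0.05, and a black line marks the list median. The CHAC1 dot lies alone at 3.50 in HBSS, and all 7 list medians lie below 0 in Torin.

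Set directly against each other in WT cells, HBSS and Torin left 5 of 8 members at different levels. NFE2L2, GCLM and TXNRD1 were higher in HBSS (3 of 8, against 26.1% of all genes tested), and KEAP1 and HMOX1 were lower (2 of 8, against 23.1%). TXNRD1 differed most, at 1.72 ± 0.12 (SE, adjusted p = 2.3e-16), a ratio of 3.32. NFE2L2 differed by 0.52 ± 0.11 (SE, adjusted p = 0.000135) and GCLM by 0.60 ± 0.14 (SE, adjusted p = 0.000346). KEAP1 stood at -0.55 ± 0.17 (SE, adjusted p = 0.00699) and HMOX1 at -1.12 ± 0.24 (SE, adjusted p = 0.000137). GCLC (-0.29, 95% interval -0.73 to 0.15), SRXN1 (-0.25, -0.48 to -0.02, adjusted p = 0.0634) and NQO1 (-0.10, -0.29 to 0.09) did not pass. SRXN1 did pass with rescaled libraries (-0.28, adjusted p = 0.0345), in edgeR (-0.29, adjusted p = 0.0359), with only the compared libraries (adjusted p = 0.0401) and with the duplicated column kept as WT HBSS (-0.27, adjusted p = 0.0266). The KEAP1 difference was -0.23 (adjusted p = 0.371) without HBSS replicate 2, and that of GCLM 0.39 (adjusted p = 0.0512) without Torin replicate 3. With the duplicated column kept as WT Torin, NFE2L2 (0.28, adjusted p = 0.188) and KEAP1 (-0.31, adjusted p = 0.26) did not pass.

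In the same contrast 31 of 94 other pathway genes were higher in HBSS (33%, beside 26.1% of all genes tested). Another 19 were lower (20.2%, beside 23.1%), and the median was 0.12. Of the NRF2 partners, relatives and regulators 9 of 13 were higher and 0 lower (median 0.70). CHAC1, OSGIN1 and SLC3A2, the heavy chain of the cystine transporter, had the largest positive differences of those with a mean of at least 5 (3.38, 2.63 and 1.78), and CBR3, MSRB2 and MSRB3 the largest negative ones (-1.36, -1.18 and -1.11). SLC3A2 was 949 ± 10.3 (SD, n = 2) in HBSS and 276 ± 8.49 (SD, n = 2) in Torin.

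Torin lowered most members in the KO cells too. In TFE3 KO 7 of 8 were lower and 0 higher (26% and 25.4% of all genes tested), in TFEB KO 5 of 8 were lower and 0 higher (21% and 17.4%), and in DKO 5 of 8 were lower and 0 higher (26.2% and 25.4%). KEAP1, GCLM, TXNRD1, SRXN1 and HMOX1 fell in each of the 3 KO genotypes. The medians over the 8 members were -0.64, -0.45 and -0.57, beside 0.02, 0.00 and 0.02 over all genes.

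GCLM reached its lowest levels in this series here. It was 58.6, 66.6 and 64.4 in TFE3 KO controls and 21.8, 29.6 and 30.4 in Torin. In DKO it was 60.6, 66.1 and 65.3 in controls and 26.5, 21.2 and 25.8 in Torin. In TFEB KO it was 107.7, 114 and 114 in controls and 70.7, 66.8 and 82.3 in Torin. No KO control library overlapped its Torin counterpart, and the fold changes were -1.20 ± 0.11 in TFE3 KO, -1.36 ± 0.11 in DKO and -0.61 ± 0.11 in TFEB KO (SE, adjusted p = 1.25e-12, 2.81e-14 and 2.02e-05).

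For TXNRD1, TFE3 KO controls were at 60.2, 68.5 and 69.7 and Torin libraries at 40.1, 36.1 and 36.4. DKO controls were at 58.1, 56.5 and 64.0 and Torin libraries at 34.6, 35.5 and 40.1. TFEB KO controls were at 78.8, 75.5 and 81.9 and Torin libraries at 57.1, 69.3 and 71.9. The decrease was thus clear of overlap in each genotype and smallest in TFEB KO, at -0.80 ± 0.10 in TFE3 KO, -0.68 ± 0.10 in DKO and -0.26 ± 0.10 in TFEB KO (SE, adjusted p = 2.25e-09, 1.06e-07 and 0.0355). The TFEB KO change did not pass in edgeR (adjusted p = 0.0968) or DESeq2 (adjusted p = 0.092), with rescaled libraries, with only the compared libraries or with the duplicated column kept as WT Torin (adjusted p = 0.0844, 0.0508 and 0.48), or without control replicate 1, control replicate 3 or Torin replicate 1 (adjusted p = 0.0705, 0.105 and 0.274).

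SRXN1 was lower in every Torin library than in any control library of its genotype. It was 90.2, 106.4 and 89.2 against 47.5, 59.7 and 49.5 in TFE3 KO. In TFEB KO the values were 155, 143 and 144 against 95.5, 98.5 and 96.3. In DKO they were 92.5, 108 and 106 against 60.3, 67.5 and 57.3. The fold changes of -0.86 ± 0.09, -0.60 ± 0.09 and -0.72 ± 0.09 (SE) had adjusted p of 6.53e-11, 8.91e-07 and 7.97e-09.

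HMOX1 fell from 11.8, 13.0 and 9.82 to 4.88, 4.01 and 4.79 in TFE3 KO. In TFEB KO it fell from 14.3, 15.6 and 14.1 to 6.90, 6.91 and 6.92. In DKO it fell from 10.3, 10.5 and 10.96 to 8.61, 4.55 and 5.31, with 1 Torin library closer to the controls than the others. The fold changes were -1.17 ± 0.20, -0.98 ± 0.20 and -0.73 ± 0.20 (SE, adjusted p = 1.91e-06, 6.73e-05 and 0.00159).

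KEAP1 was 38.3, 38.5 and 42.1 in TFE3 KO controls and 25.4, 28.7 and 30.0 in Torin, and 41.2, 41.6 and 36.6 in TFEB KO controls and 27.8, 27.6 and 24.8 in Torin. The DKO values were more scattered, at 40.5, 34.7 and 48.4 in controls and 33.4, 33.0 and 22.8 in Torin. The fold changes were -0.49 ± 0.14, -0.56 ± 0.14 and -0.46 ± 0.14 (SE, adjusted p = 0.00324, 0.00132 and 0.00499). The DKO change did not pass without control replicate 3 (-0.34, adjusted p = 0.0588) or Torin replicate 3 (-0.29, adjusted p = 0.103). NQO1 fell in TFE3 KO, from 390.1, 389 and 392.5 to 288, 282 and 285, at -0.45 ± 0.08 (SE, adjusted p = 3.27e-06). It overlapped between control and Torin in the other KO genotypes, at -0.18 (95% interval -0.34 to -0.02, adjusted p = 0.0621) in TFEB KO and -0.11 (-0.27 to 0.05, adjusted p = 0.244) in DKO, and it passed in TFEB KO without Torin replicate 2 (adjusted p = 0.0148) and in DKO without control replicate 1 (adjusted p = 0.0265).

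The remaining members showed little movement. NFE2L2 was 118.5, 129.9 and 124 in TFE3 KO controls and 105, 108 and 102 in Torin, a fold change of -0.24 ± 0.09 (SE, adjusted p = 0.0252). It did not pass without control replicate 2 or 3 or Torin replicate 1 or 3 (adjusted p = 0.0983, 0.0556, 0.0516 and 0.0776), nor with the duplicated column kept as WT Torin (0.159). In TFEB KO the estimate was 0.20 (95% interval 0.01 to 0.38, adjusted p = 0.0846), which passed with rescaled libraries (0.24, adjusted p = 0.0337), in edgeR (0.25, adjusted p = 0.0235), in DESeq2 (0.24, adjusted p = 0.0405) and without Torin replicate 1 (0.29, adjusted p = 0.0202), and in DKO it was -0.05 (95% interval -0.23 to 0.14). GCLC did not pass in any of the 3 KO genotypes, with estimates between -0.33 and -0.29, although in DKO, where Torin replicate 3 was at 16.9 and the others at 10.9 and 7.78, it was -0.56 (adjusted p = 0.00916) without that library.

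**Figure D3:**
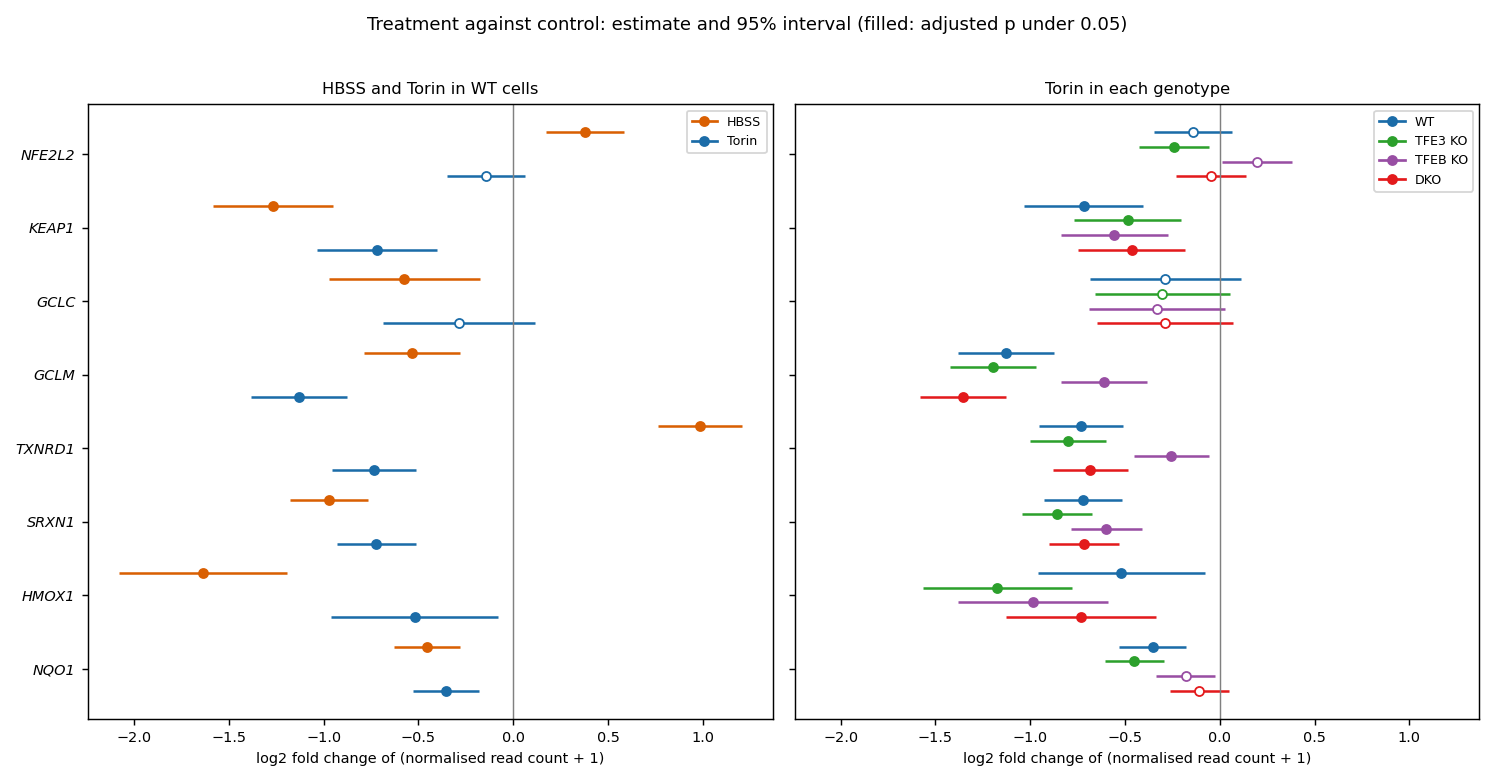
Log2 fold change (horizontal axis) with its 95% interval for the 8 members, for HBSS and Torin in WT cells (left) and for Torin in each genotype (right). Filled dots passed at an adjusted p under 0.05. TXNRD1 lies at 0.98 for HBSS and -0.73 for Torin in WT, and the TFEB KO dots of GCLM and TXNRD1 lie at -0.61 and -0.26, to the right of those of the other genotypes.

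Whether the Torin response differed between each KO and WT was tested as an interaction, and 0 of 8 members passed in any of the 3. For TFE3 KO 0.49% of all genes passed higher and 0.575% lower, and among the members only HMOX1 had an unadjusted p under 0.05 (-0.65 ± 0.29 SE, adjusted p = 0.392). For TFEB KO 0.812% of genes passed higher and 0.345% lower. The unadjusted p of 3 members was under 0.05, with smaller falls in TFEB KO for TXNRD1 (0.48 ± 0.15 SE, adjusted p = 0.101) and GCLM (0.52 ± 0.17 SE, adjusted p = 0.12) and a difference of 0.34 ± 0.14 (SE, adjusted p = 0.234) for NFE2L2. For DKO 0.314% of genes passed higher and 0.192% lower, and NQO1 had an unadjusted p under 0.05 (0.25 ± 0.12 SE, adjusted p = 0.478). edgeR and DESeq2 likewise gave 0 of 8 in each of the 3 tests. Their counts at an unadjusted p under 0.05 were 1, 3 and 0 with either tool. The smaller GCLM and TXNRD1 responses in TFEB KO were therefore not shown to differ from those in WT.

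Of the 94 other pathway genes, Torin in TFE3 KO raised 18 (19.1%, beside 25.4% of all genes tested) and lowered 40 (42.6%, beside 26%). In TFEB KO 12 were higher (12.8%, beside 17.4%) and 35 lower (37.2%, beside 21%). In DKO 15 were higher (16%, beside 25.4%) and 33 lower (35.1%, beside 26.2%). The medians were -0.21, -0.19 and -0.13. NADPH supply was lower in 7, 5 and 6 of 10 genes in that order. TXNIP rose in all 3, by 1.77 ± 0.08, 1.23 ± 0.08 and 1.84 ± 0.08 (SE, adjusted p = 4.38e-23, 8.96e-17 and 1.17e-23). CHAC2, a second glutathione-degrading enzyme, fell in all 3, by 2.25 ± 0.27, 1.19 ± 0.27 and 2.36 ± 0.27 (SE, adjusted p = 1.58e-09, 0.000472 and 4.98e-10). GLRX2 fell by 1.06 ± 0.14 in TFE3 KO and 1.04 ± 0.14 in DKO (SE, adjusted p = 1.78e-08 and 3.46e-08), and CUL3, the scaffold of the ligase that KEAP1 recruits, fell by 1.14 ± 0.11 (SE, adjusted p = 4.61e-12) in TFE3 KO. OSGIN1 fell by 1.19 ± 0.18 (SE, adjusted p = 9.83e-07) and MSRB1 by 1.21 ± 0.16 (SE, adjusted p = 4.76e-08) in TFEB KO, and PRDX4 fell by 1.03 ± 0.10 (SE, adjusted p = 2.39e-12) in DKO. Of the genes that rose, GSTA4, a glutathione transferase of lipid aldehydes, gained 1.12 ± 0.14 in TFE3 KO and 0.81 ± 0.14 in TFEB KO (SE, adjusted p = 2.06e-09 and 5.47e-06). BACH2 gained 1.21 ± 0.21 in TFE3 KO and 0.98 ± 0.21 in DKO, and GGT7 gained 0.94 ± 0.22 in TFEB KO and 1.03 ± 0.22 in DKO (SE). Genes are named here by rank within a genotype, so a gene may also have changed in genotypes for which it is not named. Torin in WT also lowered CUL3 (-0.867 ± 0.125), CHAC2 (-1.535 ± 0.305) and OSGIN1 (-0.663 ± 0.206) and raised GSTA4 (0.983 ± 0.153). These are SE, with adjusted p = 1.58e-07, 5.4e-05, 0.00763 and 7.93e-07.

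In control cells, loss of TFE3 or TFEB was accompanied by lower levels of several members. In TFE3 KO, GCLM, TXNRD1, SRXN1 and NQO1 were lower (4 of 8, against 5.84% of all genes tested) and 0 were higher (against 3.57%). In TFEB KO, NFE2L2, GCLC, TXNRD1 and NQO1 were lower (4 of 8, against 7.18%) and 0 were higher (against 7.46%). In DKO, GCLC, GCLM, TXNRD1, SRXN1 and NQO1 were lower (5 of 8, against 7.49%) and 0 were higher (against 5.64%). The medians over the 8 were -0.37, -0.25 and -0.58, beside 0.00 over all genes in each case. The 3 comparisons shared the untreated WT libraries, which were not labelled with the 12 h control incubation of the KO cells, so that incubation and genotype cannot be told apart here.

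GCLM gave the clearest split. It was 110.8 to 120.4 in untreated WT and 107.7 to 114 in TFEB KO, overlapping ranges, but 58.6 to 66.6 in TFE3 KO and 60.6 to 66.1 in DKO. The fold changes against WT were -0.85 ± 0.11 in TFE3 KO and -0.83 ± 0.11 in DKO (SE, adjusted p = 1.43e-07 and 2.02e-07). In TFEB KO the difference was -0.04, with a 95% interval from -0.26 to 0.19. SRXN1 had a like order, at 141 to 159 in WT, 143 to 155 in TFEB KO, 89.2 to 106.4 in TFE3 KO and 92.5 to 108 in DKO. Its fold changes were -0.65 ± 0.09 in TFE3 KO and -0.55 ± 0.09 in DKO (SE, adjusted p = 6.82e-07 and 1.53e-05), and -0.03 (95% interval -0.21 to 0.16) in TFEB KO.

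TXNRD1 was lower than WT in each KO, with no library overlapping. It fell by 0.58 ± 0.10 in TFE3 KO, 0.33 ± 0.10 in TFEB KO and 0.73 ± 0.10 in DKO (SE, adjusted p = 2.77e-05, 0.0181 and 2.22e-07). The TFEB KO difference was -0.26 (adjusted p = 0.119) without WT replicate 3 and -0.30 (adjusted p = 0.0724) without TFEB KO replicate 2. With the duplicated column kept as WT Torin, which left these estimates as they were, TXNRD1 did not pass in TFE3 KO, TFEB KO or DKO (adjusted p = 0.257, 0.513 and 0.092). NQO1 was also below WT in each, at 389 to 392.5 in TFE3 KO, 319 to 333 in TFEB KO and 292 to 382 in DKO against 484 to 552. The fold changes were -0.39 ± 0.08, -0.65 ± 0.08 and -0.61 ± 0.08 (SE, adjusted p = 0.000291, 3.34e-08 and 5.79e-08).

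GCLC was 18.7, 17.9 and 18.2 in TFE3 KO, 13.9, 12.4 and 12.6 in TFEB KO and 15.4, 14.99 and 12.1 in DKO, all below the 19.1 to 26.9 of WT. It passed in TFEB KO (-0.73 ± 0.18 SE, adjusted p = 0.00305) and DKO (-0.62 ± 0.18 SE, adjusted p = 0.0124) and did not in TFE3 KO (-0.27, 95% interval -0.62 to 0.09). The DKO difference did not pass without WT replicate 2 (-0.49, adjusted p = 0.113) or DKO replicate 3 (-0.52, adjusted p = 0.0802). NFE2L2 was 97.5, 78.5 and 96.7 in TFEB KO, below WT by 0.36 ± 0.09 (SE, adjusted p = 0.00468), or -0.26 (adjusted p = 0.0758) without the lowest of these, TFEB KO replicate 2, and it did not pass with the duplicated column kept as WT Torin (adjusted p = 0.118). Its differences in TFE3 KO (0.09, 95% interval -0.09 to 0.27) and DKO (0.06, -0.13 to 0.24) were within the spread.

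Neither KEAP1 nor HMOX1 passed in any genotype. KEAP1 differed by -0.18 (95% interval -0.46 to 0.11), -0.17 (-0.45 to 0.11) and -0.13 (-0.42 to 0.15) in TFE3 KO, TFEB KO and DKO. HMOX1 differed by -0.35 (-0.75 to 0.04), -0.03 (-0.42 to 0.36) and -0.47 (-0.86 to -0.07, adjusted p = 0.113).

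Because TFE3 KO and TFEB KO were each compared with the same WT libraries, they were also tested against each other. TFE3 KO had higher NFE2L2, GCLC and NQO1 (3 of 8, against 14.3% of all genes tested) and lower GCLM, TXNRD1 and SRXN1 (3 of 8, against 15.6%) than TFEB KO. GCLM differed by -0.82 ± 0.11 (SE, adjusted p = 1.35e-07) and SRXN1 by -0.62 ± 0.09 (SE, adjusted p = 6.32e-07). NFE2L2 differed by 0.45 ± 0.09 (SE, adjusted p = 0.000133) and NQO1 by 0.25 ± 0.08 (SE, adjusted p = 0.0102). GCLC, at 0.47 ± 0.18 (SE, adjusted p = 0.0396), and TXNRD1, at -0.25 ± 0.10 (SE, adjusted p = 0.0494), passed narrowly, and neither passed when any 1 of the 6 libraries was left out (adjusted p from 0.0513 to 0.105 and from 0.0534 to 0.231). With the duplicated column kept as WT Torin, these and NQO1 did not pass (adjusted p = 0.0778 for GCLC, 0.543 for TXNRD1 and 0.0532 for NQO1). KEAP1 (-0.01, 95% interval -0.29 to 0.28) and HMOX1 (-0.33, -0.72 to 0.07) did not pass.

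Of the other pathway genes in control cells, 1 of 94 was higher (1.06%, beside 3.57% of all genes tested) and 15 were lower (16%, beside 5.84%) in TFE3 KO, with a median of -0.05. In TFEB KO 6 were higher (6.38%, beside 7.46%) and 13 lower (13.8%, beside 7.18%), with a median of -0.10. In DKO 5 were higher (5.32%, beside 5.64%) and 7 lower (7.45%, beside 7.49%), with a median of -0.08. In TFE3 KO, CHAC1 fell by 1.24 ± 0.22 and SLC7A11, the cystine-glutamate exchanger that supplies cysteine for glutathione, by 0.82 ± 0.11 (SE, adjusted p = 7.25e-05 and 7.87e-08). The SLC7A11 means were 54.5 ± 6.59, 117 ± 7.77 and 97.6 ± 16.9 for TFE3 KO, TFEB KO and WT (SD of 3 libraries each), and the difference between the KO genotypes was -1.09 ± 0.11 (SE, adjusted p = 1.54e-11). The glutathione transferase GSTM3 fell by 0.65 ± 0.15 in TFE3 KO, and the prostaglandin reductase PTGR1 rose by 0.48 ± 0.12 (SE, adjusted p = 0.00213 and 0.00685).

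In TFEB KO, the mitochondrial peroxiredoxin PRDX3 fell by 0.52 ± 0.11, the porphyrin transporter ABCB6 by 0.50 ± 0.09 and NQO2, a relative of NQO1, by 0.48 ± 0.16 (SE, adjusted p = 0.00106, 6.89e-05 and 0.0356), and BACH2 rose by 0.75 ± 0.21 (SE, adjusted p = 0.00992). NRF2 partners, relatives and regulators were higher in 4 of 13 and lower in 0 in TFEB KO (median 0.11), beside 7.46% and 7.18% of all genes tested. In TFE3 KO they were lower in 3 of 13 and higher in 0 (median -0.12), beside 5.84% and 3.57%. In DKO, SLC3A2 fell by 0.82 ± 0.07 and the ferritin heavy chain FTH1 by 0.69 ± 0.06 (SE, adjusted p = 2.31e-12 and 2.27e-12). Both were also lower in TFE3 KO (-0.512 ± 0.072 and -0.275 ± 0.061 SE, adjusted p = 6.27e-07 and 0.00145). The same held in TFEB KO (-0.230 ± 0.072 and -0.462 ± 0.061 SE, adjusted p = 0.0244 and 3.8e-07). FTH1 has near-identical pseudogene copies, among which its tags could have been split. MSRB2, MGST2 and TXNIP rose in DKO, by 0.71 ± 0.08, 0.54 ± 0.10 and 0.41 ± 0.08 (SE, adjusted p = 6.51e-09, 6.04e-05 and 0.000276). TXNIP was likewise higher in TFEB KO (0.405 ± 0.083 SE, adjusted p = 0.000511).

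**Figure D4:**
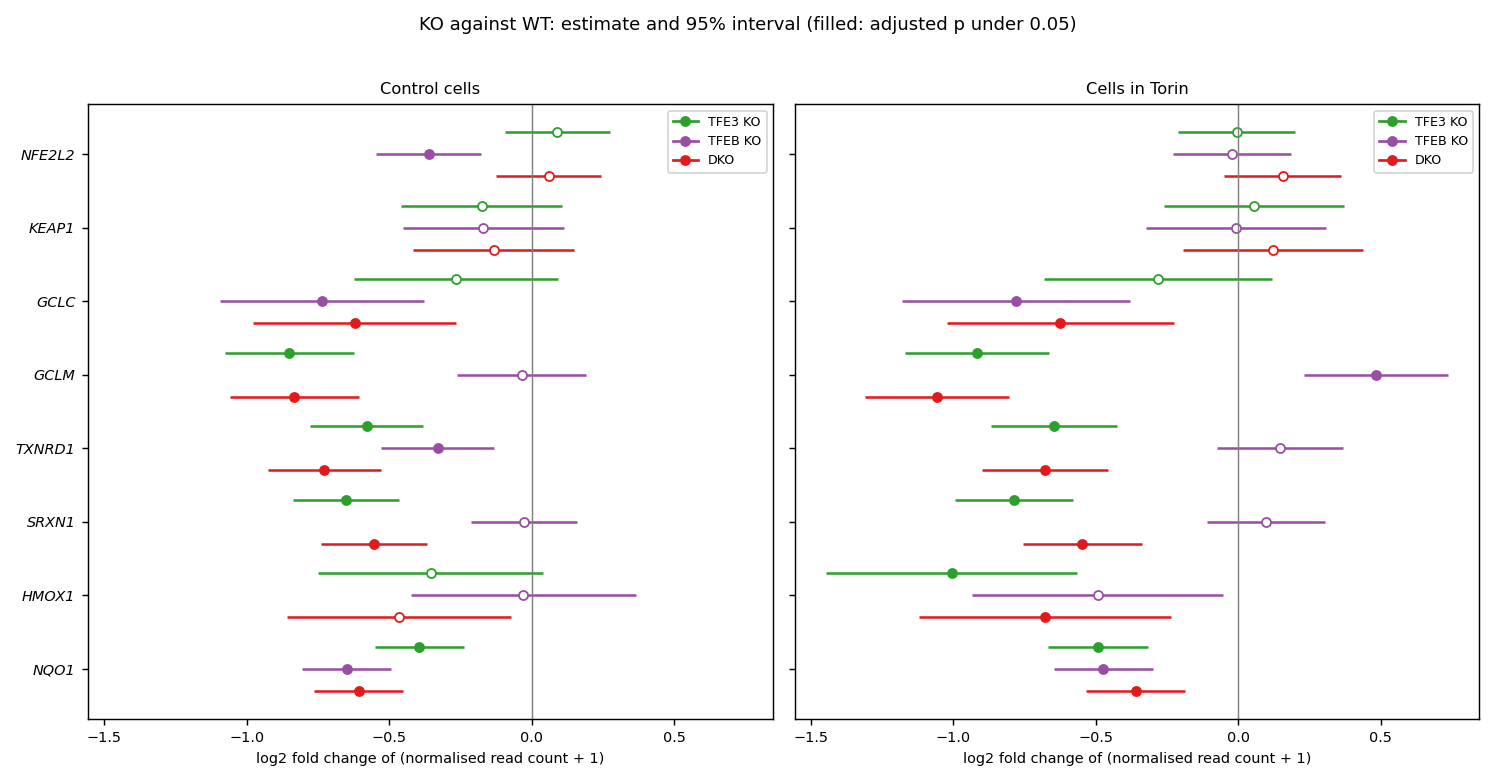
Log2 fold change of each KO against WT (horizontal axis) with its 95% interval for the 8 members, in control cells (left) and in Torin (right), with filled dots where the adjusted p was under 0.05. GCLM lies at -0.85 and -0.83 in TFE3 KO and DKO controls and at -0.04 in TFEB KO, and in Torin at -0.92, -1.06 and 0.48.

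Under Torin the genotypes again differed from WT. In TFE3 KO 5 of 8 members were lower (GCLM, TXNRD1, SRXN1, HMOX1 and NQO1, against 6.23% of all genes tested) and 0 higher (against 3.41%). In TFEB KO GCLC and NQO1 were lower (2 of 8, against 8.56%) and GCLM was higher (1 of 8, against 9.39%). In DKO 6 of 8 were lower (GCLC, GCLM, TXNRD1, SRXN1, HMOX1 and NQO1, against 7.03%) and 0 higher (against 5.03%). These comparisons shared the 2 WT Torin libraries, and the medians over the 8 members were -0.57, -0.02 and -0.59, beside 0.01, 0.00 and 0.00 over all genes.

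In Torin the GCLM mean of WT was 52.4 ± 10.7 (SD, n = 2), and those of TFE3 KO, DKO and TFEB KO were 27.3 ± 4.72, 24.5 ± 2.84 and 73.2 ± 8.06 (SD, n = 3 each). The TFE3 KO and DKO libraries all lay below, and the TFEB KO libraries above, both WT libraries, at -0.92 ± 0.13, -1.06 ± 0.13 and 0.48 ± 0.13 (SE, adjusted p = 4.63e-07, 1.92e-08 and 0.00482). The TFEB KO difference was 0.28 (adjusted p = 0.28) without WT Torin replicate 3 and 0.33 (adjusted p = 0.117) with the duplicated column kept as WT Torin. TXNRD1 was lower by 0.65 ± 0.11 in TFE3 KO and 0.68 ± 0.11 in DKO (SE, adjusted p = 3.48e-05 and 1.61e-05), and in TFEB KO it differed by 0.15 (95% interval -0.07 to 0.37). SRXN1 was lower by 0.79 ± 0.10 and 0.55 ± 0.10 (SE, adjusted p = 1.83e-07 and 0.000177) and in TFEB KO differed by 0.10 (95% interval -0.11 to 0.31).

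NQO1 was below WT in each KO, at 285 ± 2.89 (SD, n = 3), 290.0 ± 31.8 (SD, n = 3) and 313 ± 24.1 (SD, n = 3) in TFE3 KO, TFEB KO and DKO against 401 ± 6.17 (SD, n = 2), with fold changes of -0.49 ± 0.09, -0.47 ± 0.09 and -0.36 ± 0.09 (SE, adjusted p = 6.77e-05, 8.79e-05 and 0.00341). HMOX1 was lower by 1.01 ± 0.22 in TFE3 KO (SE, adjusted p = 0.0013) and by 0.68 ± 0.22 in DKO (SE, adjusted p = 0.0329), and in TFEB KO it was -0.49 (95% interval -0.93 to -0.05, adjusted p = 0.115). With the duplicated column kept as WT Torin the HMOX1 differences were -0.64 in TFE3 KO and -0.31 in DKO, and neither passed (adjusted p = 0.0667 and 0.37). GCLC was lower by 0.78 ± 0.20 in TFEB KO and 0.62 ± 0.20 in DKO (SE, adjusted p = 0.00416 and 0.03). In DKO, HMOX1 and GCLC did not pass in edgeR (adjusted p = 0.0705 and 0.0504) or DESeq2 (0.0849 and 0.0633), nor without WT Torin replicate 2 or 3 (adjusted p from 0.0945 to 0.202), HMOX1 not with only the compared libraries (0.0652) or without DKO Torin replicate 2 or 3 (0.172 and 0.105) and GCLC not without DKO Torin replicate 1 or 2 (0.0771 and 0.254). Without WT Torin replicate 3 the NQO1 difference in DKO had an adjusted p of 0.0557, and without WT Torin replicate 2 that of GCLC in TFEB KO one of 0.0646. KEAP1 and NFE2L2 did not pass in any genotype under Torin, with differences of -0.01 to 0.12 and -0.02 to 0.16.

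Of the other pathway genes under Torin, 2 of 94 were higher in TFE3 KO than in WT (2.13%, beside 3.41% of all genes tested). Another 9 were lower (9.57%, beside 6.23%, median -0.03). In TFEB KO 5 were higher (5.32%, beside 9.39%) and 16 lower (17%, beside 8.56%, median -0.10). In DKO 6 were higher (6.38%, beside 5.03%) and 11 lower (11.7%, beside 7.03%, median -0.04). MAFF was lower by 1.35 ± 0.14 in TFE3 KO and 1.02 ± 0.14 in DKO (SE, adjusted p = 2.85e-10 and 2.83e-07), at 29.7 ± 2.32 (SD, n = 3) and 37.4 ± 1.35 (SD, n = 3) against 77.0 ± 6.39 (SD, n = 2) in WT. SLC7A11 was lower by 0.99 ± 0.12 in TFE3 KO and higher by 0.74 ± 0.12 in TFEB KO (SE, adjusted p = 2.15e-08 and 9.36e-06), as GCLM was. Glutathione reductase, GSR, was lower by 0.57 ± 0.10 in TFE3 KO (SE, adjusted p = 2.37e-05). OSGIN1 was lower by 0.98 ± 0.21 in TFEB KO (SE, adjusted p = 0.000577), and NFE2L1, a relative of NRF2, was higher by 0.53 ± 0.11 (SE, adjusted p = 0.000546). FTH1 was lower by 0.61 ± 0.07 and MSRB2 and TXNIP higher by 0.65 ± 0.09 and 0.82 ± 0.09 in DKO (SE, adjusted p = 4.38e-09, 1.34e-06 and 5.55e-09).

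Read across the 9 groups, the members did not share a single order. TXNRD1 was highest in WT HBSS, at 197 ± 7.87 (SD, n = 2), then in untreated WT at 99.4 ± 8.53 (SD, n = 3), and lowest in TFE3 KO and DKO under Torin, at 37.5 ± 2.22 and 36.7 ± 2.98 (SD, n = 3), 2 groups whose ranges overlapped. NFE2L2 was likewise highest in WT HBSS, at 152 ± 5.33 (SD, n = 2), but lowest in TFEB KO controls, at 90.9 ± 10.7 (SD, n = 3), and its other 7 group means lay between 104 and 124 with neighbouring groups overlapping. The remaining members had their highest mean in untreated WT, with overlapping libraries in TFEB KO controls for GCLM, SRXN1 and HMOX1 and in DKO controls for KEAP1. KEAP1 and HMOX1 were lowest in WT HBSS, at 18.5 ± 6.05 and 4.21 ± 1.21 (SD, n = 2). GCLM was lowest in DKO under Torin, SRXN1 and NQO1 in TFE3 KO under Torin, at 52.2 ± 6.53 and 285 ± 2.89 (SD, n = 3), and GCLC in TFEB KO under Torin, at 10.1 ± 1.04 (SD, n = 3). Apart from KEAP1, each of these lowest groups overlapped the next lowest.

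The genes whose group means on the log2 scale followed each member most closely over the 9 groups were found among 9856 genes by Pearson's r, a description over points that share libraries and treatments. KEAP1 was followed by POP4 (0.992) and DYNLL1 (0.991), TXNRD1 by UBQLN1 (0.989) and WNK3 (0.985), GCLM by SKP1 (0.981) and CMPK1 (0.978), and SRXN1 by ABHD17C (0.979) and SLC2A1 (0.974). HMOX1 was followed by ALG1 (0.974) and DNAJC5 (0.968), NFE2L2 by CERS2 (0.952) and ATP5A1 (0.952), GCLC by MALSU1 (0.949) and SARS2 (0.945), and NQO1 by GNAI3 (0.904) and FECH (0.903). None of these 16 was a listed pathway gene except FECH, the ferrochelatase of haem synthesis.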

How the data were processed

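The authors trimmed reads with cutadapt 2.10, mapped them to hg38 with STAR 2.7.8a and normalised gene counts with edgeR; the counter is not given in the sources used here. The deposited values are a signal: read counts divided by a library factor, 100% of them whole multiples of 1 read. The fit kept 13052 genes that reached 1 in 3 or more libraries and left out 471. log2(value + 1) was fitted in limma 3.58.1 (R 4.3.3), with 1 mean per group over 25 libraries, trended and robust, in 16 contrasts with Benjamini-Hochberg adjustment within each. edgeR 4.0.16 and DESeq2 1.42.0 on the recovered reads were alternatives, and the limma and edgeR fits were tested on simulated data. edgeR's test, which the study used, was thus not the main one. The members and pathway lists were chosen with earlier results of these data known. The text names the 8 members, TFE3, TFEB and MITF, up to 3 pathway genes that passed at each end per contrast with a mean of at least 5, and the 2 genes most like each member. Some named pathway genes are also given for further contrasts, chosen after their values were seen. Promoters are from RefSeq GRCh38.p14, gene positions from GENCODE. Precision at 4147050 to 6526392 reads per library covers counting error only.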

Additional observations from a re-analysis of the deposited data

Results flagged for a closer look

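The column shared by WT HBSS replicate 3 and WT Torin replicate 1, outside every comparison above, held NFE2L2 at 175.7 and TXNRD1 at 183.7, above the highest untreated WT libraries (122 and 109). TXNRD1 was 192 and 203 in the other WT HBSS libraries and 58.3 and 60.2 in the other WT Torin libraries, and NFE2L2 was 148 to 155.5 and 98.2 to 113. The other 6 members lay below every untreated WT library there. KEAP1, at 15.9, compares with 14.2 to 22.8 in HBSS and 26.2 to 27.5 in Torin, SRXN1, at 73.3, with 73.2 to 78.7 and 90.0 to 90.8, and HMOX1, at 4.17, with 3.35 to 5.06 and 9.96 to 10.3. GCLM was 71.8 (78.0 to 79.7 and 44.8 to 60.0), NQO1 359 (367 to 381 and 397 to 406) and GCLC 16.7 (14.5 to 14.7 and 17.1 to 19.0). The column was given to neither group on these values. No group had the 4 libraries needed for an outlier test.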

How the results depend on the processing

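Over 12 kinds of alternative, 2068 of 2240 member estimates kept their direction and their side of the threshold, 92 lost the call and 11 gained it. Another 69, which passed neither in the reported fit nor in the alternative, changed sign, and no estimate that passed in either did. With the duplicated column kept as WT Torin, or under both labels, the members that passed went from 4 to 2 in TFEB KO against WT and from 5 to 3 in HBSS against Torin, and as WT Torin from 6 to 3 in TFE3 KO against TFEB KO. As WT Torin it ended 15 member calls. Leaving out 1 library at a time gave 2 to 4 members in TFEB KO against WT, lowest without TFEB KO replicate 2, and 3 to 5 (6 with all libraries) in DKO against WT under Torin, lowest without WT Torin replicate 3. The cause was not tested.

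Replicate numbers did not pair the libraries, since correlations of same-numbered deviations ran from -0.192 to 0.143 and no comparison with 3 pairs exceeded 0.1 in every pair or had each library closest to its own number. With the replicate block, 5 in place of 6 members passed for Torin in WT (HMOX1 -0.48, adjusted p = 0.078), and no other member's call changed.

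Over all genes, the count that passed fell by more than 1.5 times from 1228 to 484, from 1911 to 765 and from 1713 to 800 (TFE3 KO, TFEB KO and DKO against WT), from 6416 to 2694 (HBSS against Torin), from 3907 to 2484 (TFE3 KO against TFEB KO) and from 139, 151 and 66 to 24, 4 and 21 (interactions with TFE3 KO, TFEB KO and DKO), each with the duplicated column as WT Torin. Under Torin the counts against WT fell from 1258 to 598 without WT Torin replicate 2, and from 2343 to 1172 and 1574 to 803 without WT Torin replicate 3, and with the column under both labels the TFE3 KO and DKO counts rose to 2029 and 2676. Depth limits HMOX1 and GCLC most, at 16 to 87 and 41 to 136 reads.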
